A study of Homo sapiens with 9 samples.

Results

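HLA class I molecules and the genes that set their level were followed across Jurkat cells with and without an edit of EZH2. The group was chosen by gene symbol, with earlier results of these data known, and comprised 9 of the 26190 table rows with numeric values. It holds the heavy chain genes HLA-B, HLA-C, HLA-E and HLA-F, the light chain gene B2M, the transactivator genes NLRC5 and CIITA, the peptide-trimming enzyme gene ERAP1, and CD74, the invariant chain of class II molecules. RNA with a poly(A) tail was read from Jurkat, an established line from a human T-cell leukaemia. Unedited cells (WT) and the CRISPR/Cas9-edited lines EZH2-KO1 and EZH2-KO2 gave 3 libraries each, called biological triplicates in the labels, and all were collected while growing exponentially with no drug named. Since each edited line is 1 line, p-values cover the spread between its cultures and not between separate edits.

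Class I molecules present peptides from inside the cell to CD8+ T cells. A heavy chain pairs with beta-2-microglobulin in the endoplasmic reticulum, where peptides cut by the proteasome and trimmed by ERAP1 are loaded with the help of tapasin, calreticulin and ERp57. HLA-B and HLA-C are classical, polymorphic heavy chains, whereas HLA-E presents leader peptides of other class I chains to the NKG2A receptor of natural killer cells. NLRC5 and CIITA are related NLR proteins that act on a shared promoter module, NLRC5 mainly at class I genes and CIITA mainly at class II genes. EZH2, the edited gene, encodes a histone methyltransferase of the Polycomb system that marks repressed genes.

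The upstream regions of the classical heavy chain genes, HLA-F and B2M are shown because they carry the elements through which class I transcription is known to be set. Of the 9 genes, 6 had a RefSeq window (GRCh38.p14), and 4 windows are printed 5′ to 3′ in gene direction, as the 250 bases before the annotated start. Capitals mark matches on either strand to a kappaB-like element of class I genes, to AANNGAAA (an interferon response core), to TGACG (a CRE-like core) or to CCAAT (an NF-Y box). HLA-B lies on the minus strand at chr6:31357180-31357429 and HLA-C on the minus strand at chr6:31272093-31272342, HLA-F on the plus strand at chr6:29723184-29723433 and B2M on the plus strand at chr15:44711267-44711516.
HLA-B: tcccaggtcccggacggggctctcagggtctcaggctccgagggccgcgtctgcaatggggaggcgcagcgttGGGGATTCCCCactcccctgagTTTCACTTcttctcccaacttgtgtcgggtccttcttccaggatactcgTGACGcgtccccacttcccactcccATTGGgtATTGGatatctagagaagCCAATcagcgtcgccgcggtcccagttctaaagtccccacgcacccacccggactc
HLA-C: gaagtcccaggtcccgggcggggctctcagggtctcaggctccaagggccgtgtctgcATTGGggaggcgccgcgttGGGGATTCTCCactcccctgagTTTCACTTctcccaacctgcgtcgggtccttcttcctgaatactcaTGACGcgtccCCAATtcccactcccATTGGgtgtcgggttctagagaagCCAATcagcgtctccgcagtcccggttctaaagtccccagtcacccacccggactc
HLA-F: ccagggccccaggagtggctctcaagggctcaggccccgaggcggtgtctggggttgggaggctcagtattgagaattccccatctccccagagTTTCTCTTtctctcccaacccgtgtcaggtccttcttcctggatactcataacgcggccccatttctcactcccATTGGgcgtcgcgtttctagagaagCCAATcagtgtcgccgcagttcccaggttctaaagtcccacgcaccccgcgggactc
B2M: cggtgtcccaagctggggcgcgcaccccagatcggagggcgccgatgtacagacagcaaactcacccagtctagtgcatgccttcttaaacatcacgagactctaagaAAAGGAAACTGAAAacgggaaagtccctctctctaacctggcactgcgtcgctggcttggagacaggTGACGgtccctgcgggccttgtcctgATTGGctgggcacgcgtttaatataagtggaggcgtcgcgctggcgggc
The HLA-B and HLA-C windows each held all 4 motifs. Relative to the annotated start, the kappaB-like element began at -177 and -173, the interferon response core at -155 and -151, and the CRE-like core at -106 and -105. NF-Y boxes numbered 3 in HLA-B and 4 in HLA-C. The HLA-F window held 1 interferon response core and 2 NF-Y boxes. B2M had 2 interferon response cores that overlap each other, 1 CRE-like core and 1 NF-Y box. Among 35116 RefSeq windows of the same length, 0.0683% held the kappaB-like element, 20.3% the interferon response core, 21.2% the CRE-like core and 32% an NF-Y box. The kappaB-like letters are themselves those of class I upstream regions, so their rarity elsewhere adds nothing to the HLA-B and HLA-C matches. The HLA-B and HLA-C windows shared 26.4% of their 12-base words, and HLA-B and HLA-F shared 5.02%. A match describes these letters only.

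Levels are in FPKM, a fragment count corrected for gene length and for library size, as mean ± SD of 3 libraries. Fold changes are differences of log2(FPKM + 1) ± SE, a scale on which changes of weakly expressed genes look smaller. A gene was tested with limma if it reached 1 FPKM in at least 3 libraries, as 11737 genes did. Of the 9 genes 7 were tested, and CIITA and CD74 fell below that filter. Libraries held 11028 to 11415 genes at 1 FPKM or more, and their depth in reads is unknown. The EZH2 transcript measured 77.2 ± 2.54 FPKM in WT against 106 ± 2.5 in KO1, with 89.5 ± 1.4 in KO2, and an edit can leave a transcript in place, so this level does not check the labels. All 11 T-lineage markers on the list were tested, and CD3D lay between 358 and 521 FPKM. Against WT this list had 3 rises with 8 falls for KO1, CD3D among the falls, and 3 with 5 for KO2. All 11 thus passed in KO1 and 72.7% in KO2, against 67.5% and 64.7% of all tested genes. Falls made up 31.9% of all tested genes in KO1 and 26.6% in KO2. The adhesion receptor gene CD2 went from 35.8 ± 0.774 FPKM in WT to 90.6 ± 3.59 (KO1) and 4.38 ± 0.789 (KO2), and CD5, a surface glycoprotein gene, went from 34.9 ± 2.45 FPKM in WT to 14.5 ± 0.542 (KO1) and 18.7 ± 0.764 (KO2). The part of these shifts in the class I differences was not tested.

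HLA-B, HLA-C and NLRC5 transcripts were higher in both edited lines, HLA-E and ERAP1 were lower, and B2M passed the test in neither. HLA-F passed the filter on low values through edited libraries alone, so its test against WT cannot support a rise and it is left out of the counts. In KO1, 3 of the other 6 tested genes rose and 2 fell. Across all tested genes 67.5% changed in KO1, 35.6% upward and 31.9% downward, so the count alone says little about these genes. KO2 had 3 rises and 2 falls among the same 6, where 64.7% of all genes changed, 38.1% upward and 26.6% downward. The median log2 fold change of the 6 was 0.26 in KO1 and 0.22 in KO2, beside 0.018 and 0.063 over all tested genes. In KO1 the 6 ran from -1.38 (HLA-E) to 1.37 (HLA-B), so the median describes no shared shift. The genes were also chosen with earlier results of these data known, so the gap to all genes is not independent evidence. Both comparisons use the same WT libraries.

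**Figure D1:**
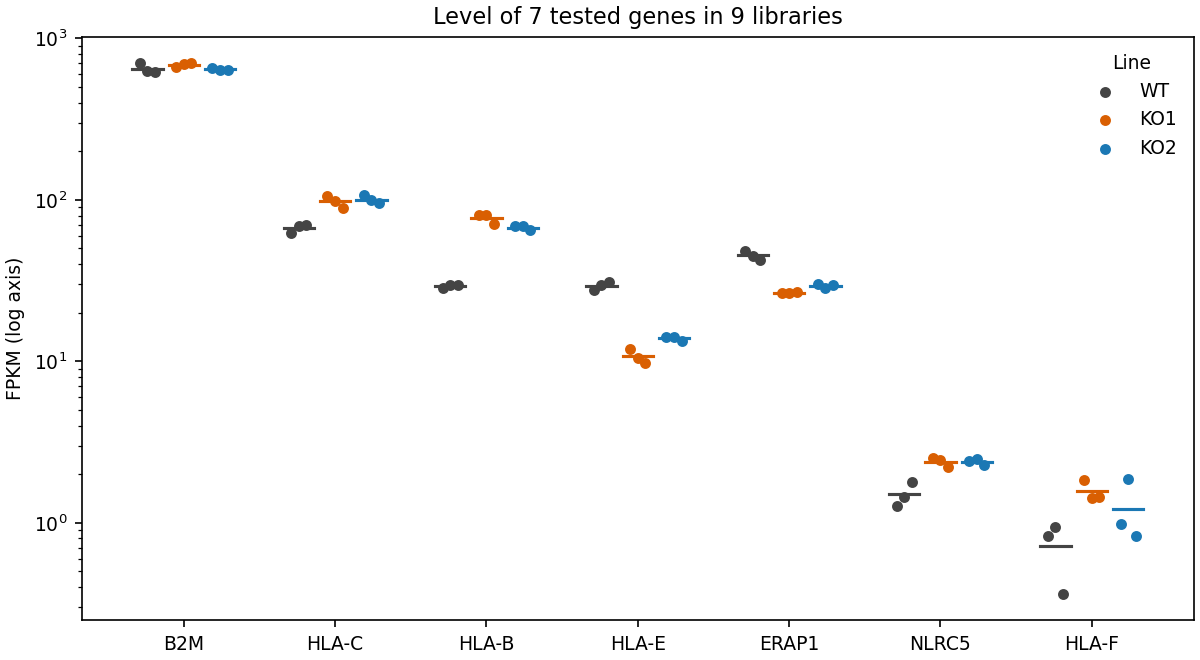
FPKM (log axis) of the 7 tested genes in each of the 9 libraries, with points for libraries and short lines for group means. HLA-B libraries of the edited lines lie between 64.8 and 80.6, all above WT, and HLA-E libraries between 9.74 and 14.2, all below WT.

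HLA-B, a classical heavy chain gene on chromosome 6, had the largest rise of the 7 genes in both lines. The WT libraries read 28.6, 29.5 and 29.6 FPKM, those of KO1 80.6, 80.5 and 70.6, and those of KO2 68.7, 68.5 and 64.8. No library of one group fell into the range of another, with KO1 highest. The log2 fold change was 1.37 ± 0.054 in KO1 (limma adjusted p = 7.03e-09) and 1.18 ± 0.054 in KO2 (adjusted p = 3.23e-08). By size of rise HLA-B ranked 349 among the 11737 tested genes in KO1 and 303 in KO2. KO2 lay below KO1 by a small step (-0.19 ± 0.054, adjusted p = 0.0206). That step did not pass without KO1 replicate 1 (adjusted p = 0.0698), KO1 replicate 2 (0.0807) or KO2 replicate 3 (0.0776).

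HLA-C, the classical heavy chain gene next to it, rose by a smaller step. Its WT libraries read 61.9, 69.1 and 69.6 FPKM, KO1 105, 99.1 and 88.9, and KO2 107, 99.2 and 95.2. Every edited library was above the WT range, and the edited lines overlapped each other. Against WT the change was 0.54 ± 0.069 in KO1 (limma adjusted p = 4.91e-05) and 0.58 ± 0.069 in KO2 (adjusted p = 3.45e-05). Between the edited lines the difference had a 95% interval of -0.12 to 0.19 (adjusted p = 0.708).

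HLA-E, a non-classical heavy chain gene, moved against HLA-B and HLA-C. WT libraries read 27.5, 29.5 and 31.2 FPKM, KO1 libraries 12, 10.5 and 9.74, and KO2 libraries 14.1, 14.2 and 13.4. The 3 groups did not overlap, and KO1 was lowest. The change was -1.38 ± 0.073 in KO1 (limma adjusted p = 5.86e-08) and -1.03 ± 0.073 in KO2 (adjusted p = 7.2e-07). Counted from the largest fall, HLA-E ranked 164 in KO1 and 241 in KO2. Its level in KO2 exceeded that in KO1 (0.35 ± 0.073, adjusted p = 0.00487). The ratio of HLA-B to HLA-E ranged over 0.949 to 1.04 in WT libraries, 6.72 to 7.7 in KO1 and 4.82 to 4.86 in KO2.

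HLA-F, a weakly expressed non-classical heavy chain gene, reached 1 FPKM in 4 libraries, all of edited lines, and entered the test through them. WT libraries read 0.829, 0.948 and 0.364 FPKM, KO1 1.84, 1.43 and 1.45, and KO2 0.987, 1.86 and 0.827. KO1 lay above WT in every library, while KO2 overlapped both. No test of HLA-F against WT is given, since the filter kept the gene only because edited libraries were high. Between the edited lines the 95% interval was -0.63 to 0.16 (adjusted p = 0.354). HLA-F overlaps its antisense gene HLA-F-AS1 in RefSeq, and whether strand was used in counting is unknown here.

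Heavy chain genes resemble each other, which bears on how reads were shared out. Of the 50-base words of a reference transcript, other genes also held 2.54% for HLA-B, 6.71% for HLA-C, 5.13% for HLA-E and 1.7% for HLA-F. Jurkat alleles may differ from the reference, so levels of one heavy chain gene against another are uncertain.

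**Figure D2:**
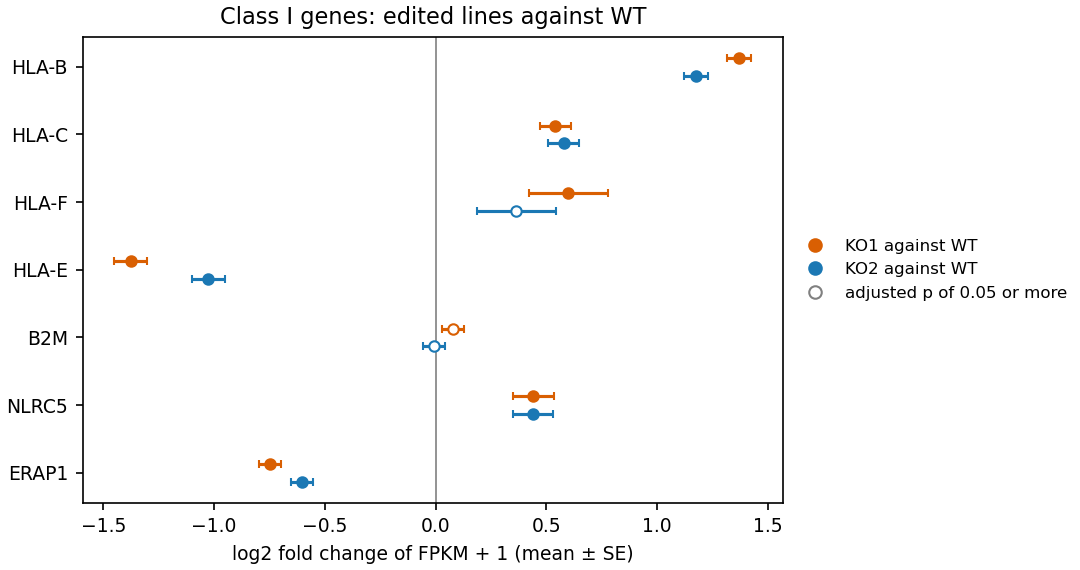
Difference of log2(FPKM + 1) (point) with its SE (bar) for class I genes in KO1 (orange) and KO2 (blue) against WT, where open points did not pass. HLA-F is drawn although the filter kept it through edited libraries alone. HLA-B and HLA-E stand at opposite ends, at 1.37 and -1.38 in KO1.

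B2M, whose product pairs with all these heavy chains, was the most abundant of the 9 transcripts. WT libraries read 700.2, 628 and 617 FPKM, KO1 661, 689.7 and 702, and KO2 660.3, 636 and 636. Both edited lines overlapped WT, in which replicate 1 was highest. The change was 0.079 ± 0.048 in KO1 (95% interval -0.028 to 0.19, limma adjusted p = 0.172). It passed in KO1 after quantile normalization (0.24, adjusted p = 0.000894), rescaled to equal library sums (TPM) (0.14, adjusted p = 0.0238) and without WT replicate 1 (0.14, adjusted p = 0.00853). In KO2 the interval was -0.11 to 0.10 (adjusted p = 0.902), and the sign of the change flipped under quantile normalization and as TPM. Between the edited lines it was -0.086 ± 0.048 (adjusted p = 0.203), which passed after quantile normalization (-0.21, adjusted p = 0.00568).

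Among these 4 heavy chain genes the make-up of transcripts shifted toward HLA-B and away from HLA-E. HLA-B, HLA-C, HLA-E and HLA-F summed to 126 ± 6.44 FPKM in WT, to 187 ± 15.1 for KO1 and to 183 ± 8.12 for KO2, and every edited library exceeded every WT library. HLA-B made up 23.2% ± 0.75 (SD, n = 3) of the WT sum, 41.3% ± 0.871 of that in KO1 and 36.8% ± 0.663 of that in KO2. The HLA-E share was 23.3% ± 0.499 in WT, 5.72% ± 0.273 for KO1 and 7.62% ± 0.173 for KO2. HLA-C made up 53% ± 0.754, 52.2% ± 0.515 and 54.9% ± 1.01 in the same order. The ratio of B2M to this sum ranged over 4.72 to 5.89 in WT, 3.3 to 4.11 in KO1 and 3.46 to 3.65 in KO2. In bulk RNA, fewer cells of a type and less RNA per cell cannot be told apart.

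By level per gene length, the order of the genes also changed. In WT it ran B2M, HLA-C, ERAP1, then HLA-E and HLA-B, whose ranges overlapped, then NLRC5 and HLA-F. In both edited lines HLA-B stood next after HLA-C, above ERAP1 and HLA-E, and none of the neighbours from B2M to HLA-F overlapped.

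**Figure D3:**
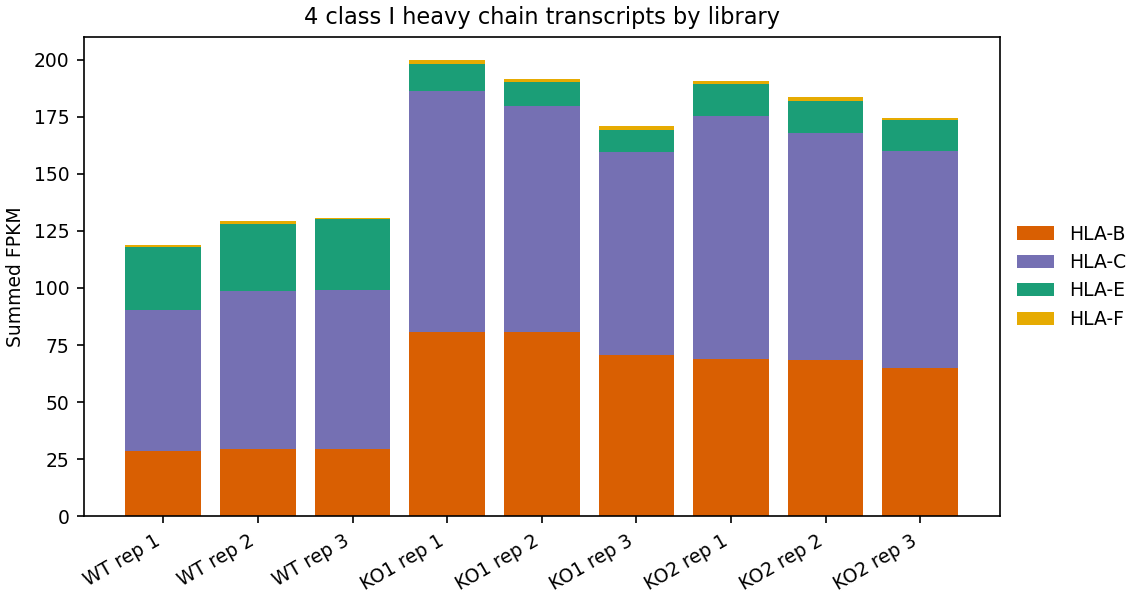
Summed FPKM of 4 class I heavy chain genes in each library, stacked by gene. The sums run over 119 to 131 in WT and 174 to 190.5 in KO2, where the HLA-B layer is wider and the HLA-E layer narrower than in WT.

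NLRC5, the transactivator of class I genes, was weakly expressed and rose in both edited lines. WT libraries read 1.27, 1.45 and 1.8 FPKM, KO1 2.51, 2.46 and 2.21, and KO2 2.42, 2.47 and 2.27. All edited libraries were above the WT range and the edited lines overlapped. The change was 0.44 ± 0.091 in KO1 (limma adjusted p = 0.00142) and 0.44 ± 0.091 in KO2 (adjusted p = 0.0016). The size depends on the scale: it was 0.29 and 0.28 after quantile normalization and 0.64 and 0.64 with a pseudocount of 0.1, and the call held in both. The difference between the edited lines had a 95% interval of -0.20 to 0.20 (adjusted p = 0.991). CIITA, the class II transactivator, was listed at 0 in all 9 libraries. CD74, the class II invariant chain, was listed at 0 in 8 libraries and at 0.0738 FPKM in KO2 replicate 3.

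ERAP1, the aminopeptidase that trims peptides in the endoplasmic reticulum, fell in both edited lines. WT libraries read 48.4, 45.1 and 42.6 FPKM, KO1 26.5, 26.4 and 26.8, and KO2 30.1, 28.6 and 29.8. The 3 groups did not overlap. The change was -0.75 ± 0.05 in KO1 (limma adjusted p = 3.2e-07) and -0.60 ± 0.05 in KO2 (adjusted p = 2.17e-06). ERAP2, the related trimming enzyme beside it on chromosome 5, went from 35.3 ± 1.27 FPKM in WT to 20.7 ± 1.92 (KO1) and 21.6 ± 0.325 (KO2) and passed in both (adjusted p = 1.61e-06 and 3.94e-06). The RefSeq extent of ERAP1 overlaps those of ERAP2 and CAST, so reads may be shared. LNPEP, the next aminopeptidase gene, went from 19.8 ± 1.86 FPKM in WT to 20.6 ± 0.185 (KO1) and 20.6 ± 2.57 (KO2) and passed in neither (adjusted p = 0.55 and 0.613).

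Between the edited lines, HLA-E and ERAP1 were higher in KO2 and HLA-B was lower, 2 and 1 of the 7. Of all tested genes 30.6% differed, 18.3% higher in KO2 and 12.4% lower. The split of these calls depends on scaling: 59.7% were higher in KO2, against 49.0% after quantile normalization, 47.9% after median centring and 44.8% as TPM. Under these 3 scalings HLA-E and HLA-B kept their direction and call. The ERAP1 difference (0.14 ± 0.05, limma adjusted p = 0.049) was lost under 14 of 20 alternatives, including all 3 scalings and each fit without WT replicate 2 or any 1 edited library (adjusted p from 0.0202 to 0.151 over all).

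Genes of peptide supply and loading moved in both directions. Of 20 listed genes 17 had values and were tested, and PSMB8, TAP1 and TAP2 were not analysed here because their rows hold text. KO1 had 6 rises and 6 falls (median -0.10), and KO2 had 4 and 6 (median -0.00039). That is 70.6% and 58.8% of the list, against 67.5% and 64.7% of all tested genes. The proteasome activator gene PSME1 fell from 205 ± 5.43 FPKM in WT to 126 ± 1.16 (KO1) and 139.8 ± 8.49 (KO2). Its partner PSME2 fell from 126 ± 1.96 FPKM in WT to 94.7 ± 1.86 (KO1) and 101 ± 4.65 (KO2). PSMB10, an immunoproteasome subunit, fell from 19.8 ± 1.83 FPKM in WT to 12.7 ± 1.87 (KO1) and 13.5 ± 0.51 (KO2). PSMB9, another such subunit, went from 20.9 ± 0.537 FPKM in WT to 17.5 ± 2.35 (KO1) and 15.9 ± 2.63 (KO2), and passed in KO2 (adjusted p = 0.0137) but not in KO1 (0.073). The difference between the edited lines was -0.13 ± 0.12 and did not pass (adjusted p = 0.433). TAPBP, which encodes tapasin, the bridge from peptide transporter to heavy chain, fell from 21.9 ± 0.578 FPKM in WT to 17 ± 0.79 (KO1) and 18.3 ± 1.25 (KO2).

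The chaperone genes CALR, PDIA3 and CANX rose in both lines. CALR, which encodes calreticulin, rose from 348 ± 6.18 FPKM in WT to 1051 ± 24.2 (KO1) and 995 ± 16.4 (KO2), with changes of 1.59 ± 0.032 and 1.51 ± 0.032 (limma adjusted p = 6.36e-11 and 1.93e-10). PDIA3, the gene of ERp57, rose from 77 ± 1.38 FPKM in WT to 104 ± 1.06 (KO1) and 106 ± 1.92 (KO2). CANX, the gene of the lectin chaperone calnexin, rose from 226 ± 10.1 FPKM in WT to 274 ± 6.22 (KO1) and 281 ± 5.16 (KO2). These proteins fold many other glycoproteins. PSME3, a nuclear proteasome activator apart from the PSME1 and PSME2 ring, rose from 61.3 ± 2.09 FPKM in WT to 90.2 ± 3.9 (KO1) and 101 ± 3.5 (KO2).

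**Figure D4:**
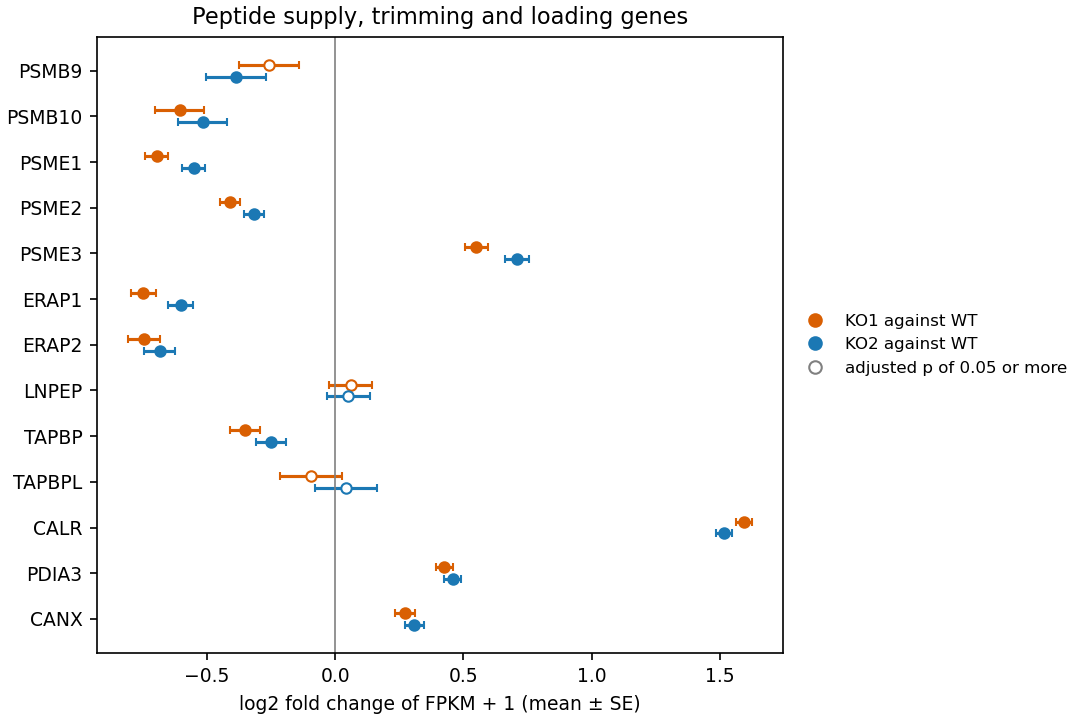
Difference of log2(FPKM + 1) with its SE for 13 genes of peptide supply, trimming and loading in KO1 (orange) and KO2 (blue) against WT, where open points did not pass. CALR lies at 1.59 and 1.51, and ERAP1, ERAP2 and PSME1 lie at -0.75, -0.74 and -0.70 in KO1.

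Factors that bind class I promoters were all expressed. Of 20 tested genes KO1 had 10 rises and 7 falls (median 0.059), and KO2 had 8 and 5 (median 0.076). Called genes made up 85.0% and 65.0% of the list, against 67.5% and 64.7% of all tested genes. The RFX subunits, which bind the X box to which NLRC5 and CIITA are recruited, rose in both lines. RFX5 rose from 43.3 ± 1.37 FPKM in WT to 48 ± 1.36 (KO1) and 50.9 ± 2.19 (KO2). RFXAP rose from 13.3 ± 0.396 FPKM in WT to 16.3 ± 0.5 (KO1) and 15.3 ± 0.828 (KO2), and RFXANK from 19.9 ± 2.5 FPKM in WT to 24.2 ± 0.582 (KO1) and 23.9 ± 1.08 (KO2). The NF-Y genes NFYA, NFYB and NFYC rose too, by 0.39, 0.44 and 0.16 in KO1 and 0.15, 0.36 and 0.21 in KO2.

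Of the interferon response factors on this list, IRF1 and IRF2 fell in both lines and IRF9 passed in neither (limma adjusted p = 0.353 and 0.962). IRF1, an activator at interferon response elements, fell from 16.1 ± 1.07 FPKM in WT to 10.8 ± 0.358 (KO1) and 11.1 ± 0.301 (KO2). IRF2, which competes for the same elements, fell from 19 ± 0.767 FPKM in WT to 10.1 ± 1.52 (KO1) and 10.0 ± 0.847 (KO2). USF1, an E-box factor outside that response, fell from 29.4 ± 0.328 FPKM in WT to 20.8 ± 0.881 (KO1) and 22.1 ± 0.813 (KO2).

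Interferon-gamma signalling genes as a list moved in both directions. The cytokine gene IFNG did not exceed 0.0805 FPKM in any library. Of 19 listed genes 13 were tested, and SOCS3 and GBP5 entered through edited libraries alone. Of the other 11, KO1 had 3 rises and 6 falls (median -0.21), and KO2 had 2 and 5 (median -0.12). These calls were 81.8% and 63.6% of the 11, against 67.5% and 64.7% of all tested genes. The receptor gene IFNGR1 went from 22.9 ± 0.528 FPKM in WT to 19.7 ± 0.593 (KO1) and 24.1 ± 0.581 (KO2) and passed in KO1 (limma adjusted p = 0.00174) but not in KO2 (0.183), with a difference called between the edited lines (0.000975), and IFNGR2 passed in neither (0.97 and 0.0581). The kinase gene JAK1 rose from 32.3 ± 1.91 FPKM in WT to 37 ± 2.29 (KO1) and 39.2 ± 0.51 (KO2). JAK2 went from 4.56 ± 0.09 FPKM in WT to 5.61 ± 0.422 (KO1) and 5.16 ± 0.409 (KO2) and passed in KO1 (0.0114) but not in KO2 (0.101), with no difference called between the edited lines (0.325). GBP5, a guanylate-binding protein gene that interferon induces, went from 0.239 ± 0.0683 FPKM in WT to 3.21 ± 0.453 (KO1) and 2.22 ± 0.183 (KO2) and is given without a test. Its relative GBP1 fell from 8.61 ± 0.501 FPKM in WT to 5.56 ± 0.515 (KO1) and 4.97 ± 0.284 (KO2).

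Class II genes were mostly near 0. Of 18 listed genes 7 were tested, and HLA-DRB1 and HLA-DQB1 were among them through edited libraries alone. The other 5 had 1 rise and 2 falls in KO1 and 1 and 2 in KO2, beside the same all-gene shares of 67.5% and 64.7%. These 5 include the class II genes HLA-DMA and HLA-DOB. HLA-DMA fell in KO2 but did not pass in KO1, with no difference called between the edited lines, and HLA-DOB passed in neither. The class II beta chain gene HLA-DRB1 read 0.34, 0.319 and 0 FPKM in the WT libraries, 1.44, 0.781 and 1.4 for KO1 and 0.97, 0.813 and 1.12 for KO2. HLA-DQB1, another, went from 0.207 ± 0.0898 FPKM in WT to 1.05 ± 0.159 (KO1) and 0.851 ± 0.248 (KO2). For both, the filter decided the direction that a test could find, and the alpha chain gene HLA-DRA did not exceed 0.473 FPKM. LGMN, a lysosomal protease with roles outside presentation, fell from 55.9 ± 2.18 FPKM in WT to 21.4 ± 0.832 (KO1) and 19.5 ± 1.98 (KO2). SPPL2A, the membrane protease that clears the last piece of the invariant chain, rose from 11 ± 0.334 FPKM in WT to 17.3 ± 1.97 (KO1) and 17.8 ± 0.998 (KO2). CTSS, a protease of antigen-presenting cells, did not exceed 0.124 FPKM.

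Other class I-like genes had no common direction. Of 17 listed genes 8 were tested, with 2 rises and 3 falls in KO1 and 1 and 3 in KO2, beside the 67.5% and 64.7% called over all tested genes. MICA, a ligand gene for the NKG2D receptor of natural killer cells, fell from 7.43 ± 0.379 FPKM in WT to 5.6 ± 0.954 (KO1) and 5.69 ± 0.612 (KO2). ULBP2, another such ligand gene, fell from 7.22 ± 0.498 FPKM in WT to 4.16 ± 0.665 (KO1) and 5.65 ± 0.145 (KO2). ULBP1 went from 7.16 ± 0.798 FPKM in WT to 6.03 ± 0.52 (KO1) and 4.89 ± 0.469 (KO2) and passed in KO2 (limma adjusted p = 0.00117) but not in KO1 (0.0637), with no difference called between the edited lines (0.0584). RAET1E, of the same family, rose from 2.62 ± 0.11 FPKM in WT to 4.63 ± 0.883 (KO1) and 4.71 ± 0.796 (KO2). HLA-G did not exceed 0.55 FPKM and was not tested.

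Markers of other cell types were read in the same libraries. The 8 monocyte and dendritic cell markers summed to at most 0.365 FPKM in any library, with FCER1A and CD163 at 0 in all. The 8 B-cell markers summed to 25.7 to 30.3 FPKM in WT, 50.6 to 60.0 in KO1 and 20.1 to 23.2 in KO2, most of it CD79A, with PAX5 at 0 in all. The 7 natural killer markers summed to 2.06 to 2.54, 21 to 23.6 and 8.99 to 11.5 in that order, nearly all NCAM1 and NKG7, with KLRF1 at 0 in all. The 8 stromal, endothelial and epithelial markers summed to 15.8 to 16, 12.4 to 15.3 and 15.6 to 17, mostly PECAM1, with DCN at 0. As for the T-lineage markers, their part was not tested.

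Genes beside these on the chromosome moved in both directions. Of 22 other tested genes from HLA-F to HLA-B in RefSeq order, KO1 had 7 rises and 10 falls (median -0.061), and KO2 had 5 and 5 (median 0.0027). Over all tested genes 35.6% rose and 31.9% fell in KO1 (median 0.018), and 38.1% rose and 26.6% fell in KO2 (median 0.063). A rise counted in both lines is that of HCG17, which passed the filter through edited libraries alone. HLA-E lies between RPP21, at 29.4 FPKM in WT, 23.3 for KO1 and 28.5 for KO2, and GNL1, at 15.5, 14 and 14.6. RPP21 passed in KO1 (limma adjusted p = 0.0265), with no difference called between the edited lines (0.0786), and GNL1 in neither line. HCG27, the nearest tested gene to HLA-C on the side away from HLA-B, fell in both lines (-0.62 and -0.28, adjusted p = 0.000157 and 0.0216). Rows of 38 genes, many of the MHC region, hold text and were not analysed here.

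**Figure D5:**
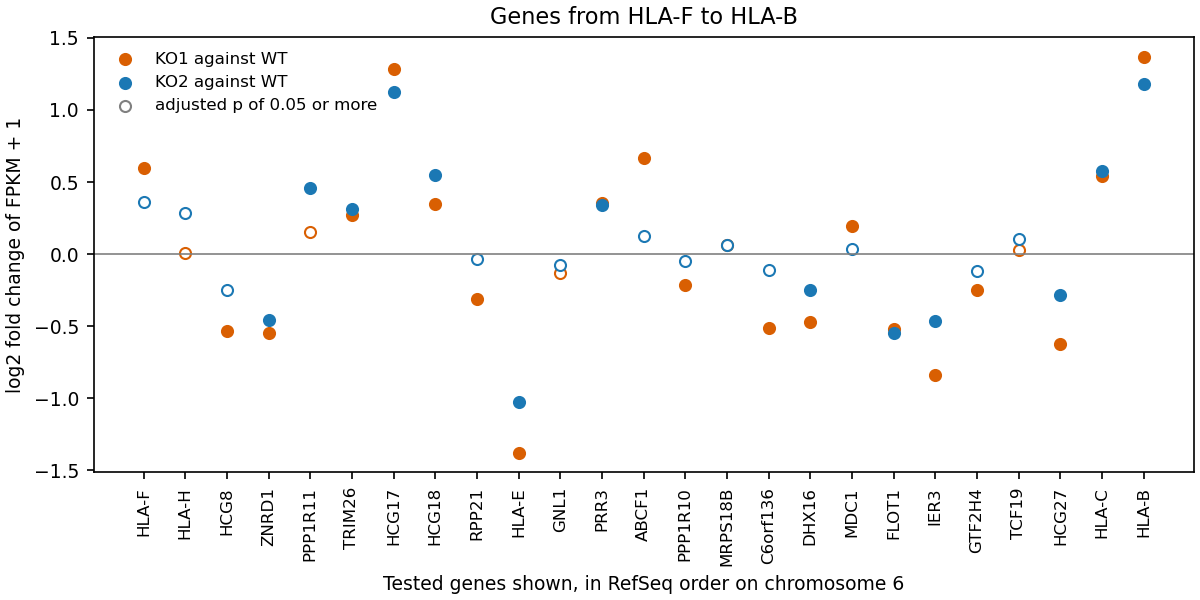
Difference of log2(FPKM + 1) in KO1 (orange) and KO2 (blue) against WT for tested genes from HLA-F to HLA-B in chromosome order, 1 of them not shown, where open points did not pass. HLA-E lies at -1.38 in KO1 between RPP21 at -0.31 and GNL1 at -0.13, and HLA-C and HLA-B rise beside HCG27 at -0.62.

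The genes nearest to each in pattern were ranked by the root mean square difference of log2(FPKM + 1), centred on the WT mean, over the 9 libraries. For HLA-B these were SVIL (0.066), RPS6KA2 (0.067) and AUTS2 (0.069), and 75 tested genes lay within 0.15 of it. RPS6KA2 was weakly expressed in WT (mean 0.612 FPKM, against 2.98 in KO1 and 2.66 in KO2), where this scale makes changes look smaller. With a WT mean under 1 FPKM it also needed edited libraries to pass the filter, which partly sets its likeness in rising. HLA-E was nearest to DOK2 (0.081), CHI3L2 (0.084) and CLIP3 (0.085), with 34 genes that near. ERAP1 was nearest to RNF19A (0.042), PTPRC (0.045) and CNOT8 (0.046), with 375, and PTPRC encodes the leukocyte phosphatase CD45. The nearest to HLA-C were ZC3H7B (0.045), MSTO1 (0.049) and SMO (0.052), and to NLRC5 CCDC97 (0.029), GLTSCR1L (0.044) and GGT7 (0.056). B2M had RSL24D1 (0.021), DSCR3 (0.027) and C3orf38 (0.029), and HLA-F had KCNJ4 (0.16), SLC2A4 (0.17) and N4BP3 (0.17). Those nearest to HLA-F averaged 0.939, 0.517 and 0.53 FPKM in WT, in that order, so the same limits of scale and filter apply to them. Within 0.15 lay 616 genes for HLA-C, 936 for NLRC5, 2092 for B2M and 0 for HLA-F.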

How the data were processed

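Sample titles gave the groups and replicate numbers. A single table of FPKM, 1 column per library, was deposited by the authors. The submitters' processing notes name STAR 2.5.0b, Cufflinks 2.2.1, bedtools 2.7.0 and hg19, without order or role; annotation, strand and the handling of multiply mapped reads were not found in the labels. Of 26228 rows, 38 hold text and were left out. FPKM are not counts, so log2(FPKM + 1) of genes at 1 FPKM or more in at least 3 libraries went into limma 3.58.1 (R 4.3.3): a mean for each group, every library in a common fit, a mean-variance trend, no covariates. The threshold was a Benjamini-Hochberg adjusted p of 0.05. The fit was tested on simulated data in which only a small part of the genes changed, none of them weakly expressed. That test therefore does not cover weak genes such as NLRC5, or data in which most genes change.

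The genes and lists were chosen with earlier results of these data known. Named genes were the 9, EZH2, up to 3 per list ranked by p over both edited lines together, set partners of class I loading and control, genes nearest in pattern, and neighbours. PSME2, CANX, NFYA, NFYB, NFYC, GBP1, SOCS3, HLA-DRB1, HCG17, NLRP3 and single marker genes were named after their values were seen. Transcript words came from GENCODE and promoter windows from RefSeq. Alternatives were other filters, pseudocounts and scalings, other moderation, fits of only the groups compared, a replicate block, and leaving out each library. Some genes on the lists enter counts and sums but are not reported here. Total read counts are unknown, so no counting interval is given.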

Additional observations from a re-analysis of the deposited data

Results flagged for a closer look

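HLA-E, HLA-B and ERAP1 differed between the edited lines by the test of that difference itself. HLA-E was higher in KO2 than in KO1 by 0.35 on the log2 scale (limma adjusted p = 0.00487), and passed under all 20 alternatives (adjusted p from 0.00141 to 0.0215). HLA-B differed by -0.19 (adjusted p = 0.0206, from 0.00233 to 0.0807 over the alternatives), and 3 of 20 did not pass. ERAP1 differed by 0.14 (adjusted p = 0.049, from 0.0202 to 0.151), and 14 of 20 did not pass.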

How the results depend on the processing

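Counts of genes called stayed within 1.5 times of those reported, at 6349 to 8790 in KO1, 6153 to 8017 in KO2 and 2643 to 4081 between the lines. HLA-B, HLA-C, HLA-E, NLRC5 and ERAP1 kept direction and call against WT in both lines under every alternative that tested them (NLRC5 and HLA-F drop out at a filter of 5 FPKM). Values near 0 changed sign without passing. These were B2M in KO2 after quantile normalization (0.025), as TPM (0.0017) and in fits without 1 library (-0.042 to 0.049), HLA-C between the lines as TPM (-0.0091) and without 1 library (-0.028 to 0.094), and NLRC5 between the lines without 1 library (-0.042 to 0.023). The cause was not tested. Replicate numbers were not taken to pair the samples. Deviations were correlated above 0.1 in 3 of 9 same-numbered pairs (-0.29 to 0.32) and in 4 of 18 other pairs (-0.27 to 0.34). With the replicate block 7694, 7339 and 3135 genes were called in KO1, in KO2 and between the lines, and among the 9 genes it changed only the ERAP1 call between the lines (0.14, adjusted p = 0.0744). Depth in reads is unknown.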

Other observations

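The NLR family, to which both transactivators belong, was mostly at low levels. Of 13 listed genes 5 were tested, and NLRP6 was at 0 in all libraries, as was CIITA. NLRC3, the most abundant of those tested, rose from 8.11 ± 0.39 FPKM in WT to 12.4 ± 0.323 (KO1) and 10.2 ± 0.479 (KO2) (limma adjusted p = 9.07e-06 and 0.000902). NLRX1, a mitochondrial member, went from 4.88 ± 0.577 FPKM in WT to 2.93 ± 0.463 (KO1) and 4.68 ± 0.522 (KO2), passed in KO1 (0.000657) but not in KO2 (0.707), and differed between the lines (0.0039). NLRP3, an inflammasome sensor below the filter, was at 0.0337 FPKM or less in WT and at 0.319 or more in every edited library. It was picked from the untested genes of this list after its values were seen, so its separation from WT says nothing about the family.

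Of 6 listed core genes of the Polycomb system of EZH2, all tested, EZH2 itself rose in both lines. EZH1, RBBP4 and RBBP7 fell in both. Called genes made up 66.7% of the list in each line, against 67.5% and 64.7% of all tested genes. EZH1, the paralogue of EZH2, fell by 0.64 and 0.55 on the log2 scale in KO1 and KO2 (limma adjusted p = 1.17e-05 and 4.58e-05). The histone-binding subunit gene RBBP7 fell from 153 ± 9.6 FPKM in WT to 101 ± 5.47 (KO1) and 120.0 ± 3.06 (KO2).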
